A study of Homo sapiens with 24 samples.

Results

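A group of 10 chemokine genes, out of 61860 gene identifiers in each count table, was followed across 24 RNA-seq libraries of OE33, a human cell line from an esophageal adenocarcinoma (EAC). They were taken by their symbols: CXCL1, CXCL2, CXCL3, CXCL5, CXCL6 and CXCL8, CCL20 and CCL2, and CXCL16 and CX3CL1. The libraries fall into 4 experiments, each with 3 libraries of a treated group and 3 of its own control group. In the first, male BALB/c-nu mice, 4 weeks old when bought, were fed either normal chow (ND, normal diet) or high-fat chow (HFD, high-fat diet) for 8 weeks, received OE33 cells under the skin, and stayed on their diet for 21 days, and the tumors were sequenced. The other 3 used cultured OE33 cells. They carried a plasmid for HA-tagged TRIM15, an E3 ubiquitin ligase, or the empty vector (EV) for 48 hours, a short hairpin RNA against the transcription factor YY2 (shYY2) or a control hairpin (shControl) for 72 hours, or a hairpin against FOXRED1, an assembly factor of mitochondrial complex I (shFOXRED1), or a second shControl group for 72 hours. No experiment shared a library with another.

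Chemokines are small secreted or shed proteins that draw leukocytes along a gradient by binding receptors with 7 transmembrane segments. CXCL1, CXCL2, CXCL3, CXCL5, CXCL6 and CXCL8 carry a glutamate-leucine-arginine (ELR) motif before their first cysteines and attract neutrophils through CXCR2, and CXCL6 and CXCL8 also through CXCR1. CCL20 attracts cells with CCR6, among them IL-17-producing T cells, and CCL2 attracts monocytes through CCR2. CXCL16 and CX3CL1 are made as transmembrane proteins with the chemokine on a mucin stalk, bind CXCR6 and CX3CR1, and are cut from the cell by ADAM10 and ADAM17. Epithelial cells switch on the secreted members through NF-kB when they sense interleukin-1, tumor necrosis factor or bacterial products.

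Total counts were 14299807 to 45994561 per library. The targeted genes moved with their labels: TRIM15 had 111, 130 and 181 counts with HA-TRIM15 and 0 in each EV library, YY2 had 11, 12 and 11 counts with shYY2 against 43, 40 and 46, and FOXRED1 was at 10.1 ± 1.19 CPM (counts scaled to library size) with shFOXRED1 against 17.4 ± 0.286 (SD, n = 3). Only 1 cell line was used, athymic mice lack mature T cells, and the tables list human genes alone. How mouse reads of the tumor libraries were handled is not given in the sources used here, so host reads that align to human genes may be in the tumor counts. Of 8 neutrophil markers, 8 leukocyte and T-cell markers and 8 endothelial markers, the summed level stayed at or under 1.09, 4.55 and 1.38 CPM in every library. Epithelial markers summed to 11380 CPM or more. No source says that the libraries of a group came from separate cultures or, for the tumors, from separate mice. The p-values therefore measure the spread between these libraries, which may be technical.

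Of the members, 6 lie within 359 kb of chromosome 4 (GRCh38, GENCODE 29), in the order CXCL8, CXCL6, CXCL1, CXCL5, CXCL3 and CXCL2, from position 73740506 to 74099293. CXCL8, CXCL6 and CXCL1 are on the plus strand and CXCL5, CXCL3 and CXCL2 on the minus strand. CCL20 is on chromosome 2 (227805739 to 227817564), CXCL16 and CCL2 are on chromosome 17 (4733526 to 4739922 and 34255218 to 34257203), and CX3CL1 is on chromosome 16 (57372458 to 57385048). Promoters of 7 members were at hand from RefSeq (GRCh38.p14), all but CXCL16, CCL2 and CX3CL1. The 120 bases before the start of transcription are shown 5′ to 3′ on the gene's own strand, because 6 of them share 1 element. Capitals mark GGAATTTCC or, in CCL20, the match to the 10-base NF-kB consensus.
CXCL1 (chr4:73869273-73869392, plus): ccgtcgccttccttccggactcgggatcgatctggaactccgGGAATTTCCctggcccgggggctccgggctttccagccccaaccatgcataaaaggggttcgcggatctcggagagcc
CXCL2 (chr4:74099196-74099315, minus): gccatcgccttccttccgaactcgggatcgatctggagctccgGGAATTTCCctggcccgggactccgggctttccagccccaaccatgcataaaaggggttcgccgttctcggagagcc
CXCL3 (chr4:74038690-74038809, minus): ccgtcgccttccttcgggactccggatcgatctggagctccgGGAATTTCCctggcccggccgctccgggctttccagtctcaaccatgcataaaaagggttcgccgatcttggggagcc
CXCL5 (chr4:73998678-73998797, minus): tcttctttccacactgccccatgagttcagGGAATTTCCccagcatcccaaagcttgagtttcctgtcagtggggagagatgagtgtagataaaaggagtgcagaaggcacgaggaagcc
CXCL6 (chr4:73836558-73836677, plus): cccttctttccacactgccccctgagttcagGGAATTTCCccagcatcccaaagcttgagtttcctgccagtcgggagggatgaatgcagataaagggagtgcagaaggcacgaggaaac
CXCL8 (chr4:73740449-73740568, plus): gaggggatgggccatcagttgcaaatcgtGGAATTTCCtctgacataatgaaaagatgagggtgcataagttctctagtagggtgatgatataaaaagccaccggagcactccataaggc
CCL20 (chr2:227813722-227813841, plus): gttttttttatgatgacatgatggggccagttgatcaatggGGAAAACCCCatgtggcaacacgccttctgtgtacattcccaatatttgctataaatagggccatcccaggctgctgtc
The sequences fall into near copies: CXCL1 and CXCL2 were identical at 93.4% of aligned positions, CXCL1 and CXCL3 at 90.8%, and CXCL5 and CXCL6 at 90.9%, whereas CXCL8 shared 43.7% to 50% with any other. On both strands of the 250 bases before the start, GGAATTTCC was found in 6 of the 7 promoters, the 6 of chromosome 4, and in 0.413% of all 35116 promoters in the table. It began 91 to 77 bases before the start. The NF-kB consensus, which overlaps GGAATTTCC in all of these but CXCL8, matched all 7 and 12.3% of all promoters. TGANTCA, the AP-1 element, was in CXCL8 alone (6.57% of all promoters), TATAAA in CXCL8 and CCL20 (10.7%), and CCATNTT, the core of the YY1 element, in none of the 7 (11.6%). These matches are descriptions of the letters and not of binding.

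The members differed widely in level. Per kilobase of exon, which allows genes to be compared, CXCL1 in the HFD tumors was highest, at 152 CPM per kb. In the ND tumors CXCL1 had 78.6, CXCL2 64.4, CXCL8 38.2, CXCL16 37.8 and CXCL3 27.2 CPM per kb. CXCL6, CX3CL1 and CCL20 lay lower, at 4.26, 3.22 and 2.31 CPM per kb, and CXCL5 at 0.225. CCL2 had 0 to 4 counts in every library and was not tested in any comparison.

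Most members tested were called higher in the HFD tumors and with HA-TRIM15 and lower with shYY2. With shFOXRED1 the outcome depended on the fit. Most members tested did not pass in the unpaired fit, which gave the calls in every comparison. With the replicate number as a block, the pairing adopted for that experiment, most did pass. A gene was called at an adjusted p under 0.05 (edgeR quasi-likelihood test, Benjamini-Hochberg over all genes tested). In HFD against ND, 9 of the 10 were tested, 8 were higher and 1 was lower, where 25.6% of all 17012 genes tested were higher and 23.9% lower. With HA-TRIM15, 8 were tested, 5 were higher and 0 were lower, where 12.5% of 15745 genes were higher and 9.53% lower. With shYY2, 8 were tested, 0 were higher and 7 were lower, where 36.8% of 16006 genes were higher and 38.1% lower. With shFOXRED1, 7 were tested, 1 was higher and 1 was lower, where 16.8% of 15730 genes were higher and 19.7% lower. With the replicate number as a block, 2 members were higher and 2 lower there. The libraries of treated and control did not overlap in 8 of 9, 6 of 8, 7 of 8 and 3 of 7 members tested, beside 56.2%, 37.7%, 76.3% and 46.7% of all genes. The median log2 fold change of the members tested was 0.82, 0.72, -2.20 and -0.07, beside -0.01, -0.01, -0.01 and 0.01 over all genes tested.

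**Figure D1:**
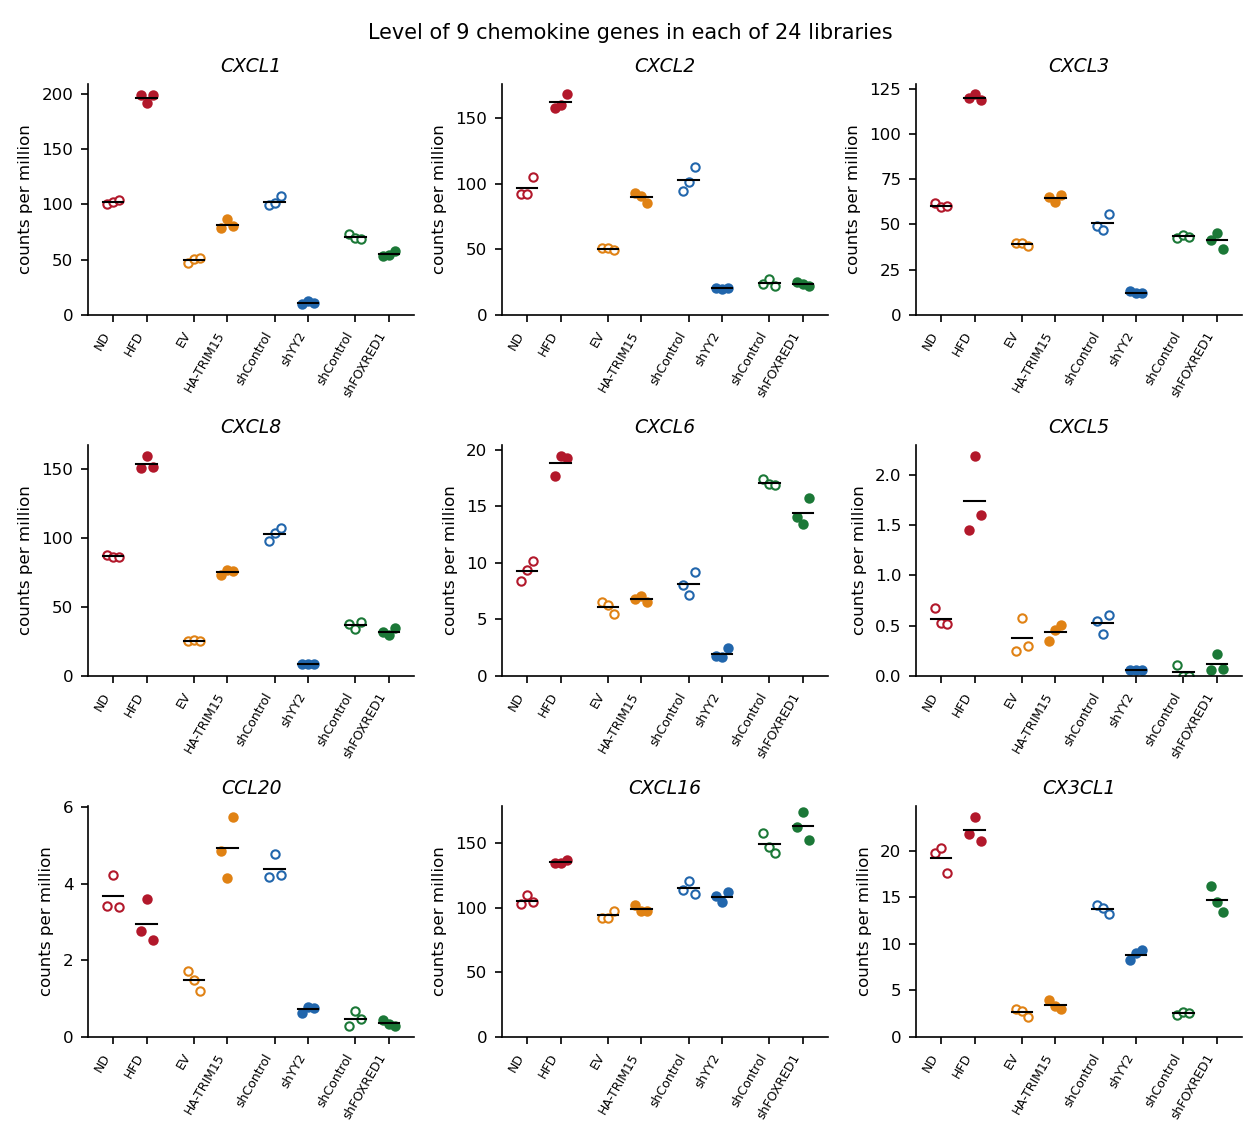
Level of 9 members in each of the 24 libraries, in CPM, with an axis from 0 for each gene. Open circles are control libraries, filled circles treated ones, and black lines the means of 3. The HFD libraries are the highest of all 8 groups for CXCL1, CXCL2, CXCL3, CXCL8, CXCL6, CXCL5 and CX3CL1, the shYY2 libraries the lowest for CXCL1, CXCL2, CXCL3, CXCL8 and CXCL6, and CX3CL1 stands at 13.5 to 16.2 with shFOXRED1 against 2.37 to 2.65 in its control.

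CXCL8, or interleukin-8, the most studied neutrophil attractant, fell furthest with shYY2. It stood at 8.70, 8.16 and 8.71 CPM with shYY2 and at 97.6, 103.8 and 107.1 in shControl, a wide gap with no overlap. It was 12.1-fold lower (log2 fold change -3.59 ± 0.06 SE, adjusted p = 1.29e-16), the 50th largest change of all genes tested. With HA-TRIM15 it stood at 73.5, 76.8 and 76.1 CPM against 25.1, 26.1 and 25.4 in EV, again apart. This was 2.95-fold higher (1.56 ± 0.04, adjusted p = 5.41e-12) and the 40th largest change there. In the HFD tumors it stood at 151.1, 159.8 and 151.4 CPM against 87.7, 86.5 and 86.5 in ND, 1.77-fold higher (0.82 ± 0.04, adjusted p = 2.83e-11). With shFOXRED1 the groups overlapped, at 31.6, 29.7 and 34.8 CPM against 37.5, 33.6 and 38.7, and the change of -0.20 ± 0.08 did not pass (adjusted p = 0.0797). With the replicate number as a block that change passed (adjusted p = 0.0250).

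CXCL1, first known as a growth factor of melanoma cells, followed the same course. With shYY2 it was at 9.68, 12.4 and 10.7 CPM against 99.5, 100.9 and 107.4 in shControl, 9.42-fold lower (-3.24 ± 0.06, adjusted p = 9.64e-16). In the HFD tumors it was at 198.9, 192.1 and 199.1 CPM against 100.2, 101.8 and 103.7, which put the diets far apart with little spread in either, 1.93-fold (0.95 ± 0.04, adjusted p = 3.71e-12). With HA-TRIM15 it was at 78.5, 86.4 and 80.0 CPM against 46.7, 50.7 and 51.7, 1.64-fold higher (0.71 ± 0.05, adjusted p = 1.56e-07). In the unpaired fit CXCL1 was the only member called lower with shFOXRED1. All 3 of those libraries, at 52.9, 54.4 and 57.9 CPM, lay under the 73.5, 69.7 and 69.0 of their controls, by 1.29-fold (-0.36 ± 0.07, adjusted p = 0.000336).

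CXCL2 and CXCL3, close copies of CXCL1 with the same receptor, moved by less with shYY2 than CXCL1 did. CXCL2 was at 20.1, 20.0 and 20.6 CPM with shYY2 against 94.8, 101.2 and 113.0, 5.09-fold lower (-2.35 ± 0.06, adjusted p = 3.29e-14), and CXCL3 was 4.15-fold lower (-2.05 ± 0.07, adjusted p = 7.68e-13). CXCL3 went from 60.5 ± 1.24 CPM in ND to 120.2 ± 1.64 in HFD tumors (SD, n = 3), 1.99-fold (adjusted p = 3.71e-12), and CXCL2 from 96.6 ± 7.25 to 162.3 ± 5.57, 1.69-fold (adjusted p = 1.70e-09). With HA-TRIM15 CXCL2 was 1.78-fold and CXCL3 1.65-fold higher (0.83 ± 0.04 and 0.72 ± 0.04, adjusted p = 6.13e-09 and 2.89e-08), and no treated library overlapped a control. With shFOXRED1 both overlapped their controls, at -0.06 ± 0.10 and -0.07 ± 0.08 (adjusted p = 0.651 and 0.530), and each changed sign without 1 library: CXCL2 came to 0.023 without shControl of FOXRED1 replicate 2, and CXCL3 to 0.0026 without shFOXRED1 replicate 3. Reads of these 3 transcripts can be hard to tell apart: 5.73%, 9.24% and 3.02% of the 50-base windows of CXCL1, CXCL2 and CXCL3 also occur in another gene, and 0 of the 100-base windows. Counted as 1 gene, the 3 changed by 0.89, 0.76, -2.56 and -0.21 in the order of the comparisons above, the last with an adjusted p of 0.00603.

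CXCL6, a ligand of both neutrophil receptors made by epithelium and fibroblasts, rose in the tumors but did not pass with HA-TRIM15. It stood at 17.7, 19.5 and 19.3 CPM in HFD against 8.43, 9.33 and 10.1 in ND tumors, 2.03-fold (1.02 ± 0.08, adjusted p = 1.89e-08). With HA-TRIM15 it stood at 6.77, 7.09 and 6.51 CPM against 6.56, 6.24 and 5.47 in EV, overlapping groups with a change of 0.16 and a 95% interval of -0.07 to 0.39 (adjusted p = 0.308). With shYY2 it fell from 8.13 ± 1.05 to 1.96 ± 0.413 CPM, 4.12-fold (adjusted p = 9.15e-09). With shFOXRED1 its libraries were lower without overlap, at 14.1, 13.4 and 15.7 CPM against 17.4, 17.0 and 16.9, but the change of -0.25 ± 0.10 did not pass (adjusted p = 0.0715).

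CXCL5, its neighbor in sequence and a product of inflamed epithelium, was scarce. It had 33, 40 and 61 counts in the HFD libraries and 18, 25 and 11 in ND, or 1.74 ± 0.389 against 0.570 ± 0.0909 CPM, 3.01-fold (1.59 ± 0.23, adjusted p = 2.35e-05). In fold terms this was the largest rise of a member with HFD and the one with the fewest counts. It did not pass the filter on low counts in the other 3 experiments, each fitted alone. With shYY2 it had 1 count in each library against 10, 7 and 12, a ratio of 0.110 with an exact 95% interval of 0.0215 to 0.356 for counting error only. With HA-TRIM15 it had 7, 7 and 8 counts against 5, 13 and 8, a ratio of 1.14 (0.616 to 2.09).

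CCL20 was called lower with shYY2 and in the HFD tumors, and higher with HA-TRIM15. With HA-TRIM15 it had 100, 64 and 91 counts against 35, 34 and 32, or 4.93 ± 0.797 against 1.47 ± 0.264 CPM, 3.38-fold higher (1.76 ± 0.18, adjusted p = 6.77e-06) and the 24th largest change of all genes tested there. With shYY2 it had 10, 13 and 14 counts against 76, 81 and 84, 6.07-fold lower (-2.60 ± 0.19, adjusted p = 3.55e-09). In the tumors it was the 1 member called lower with HFD, at 2.76, 3.61 and 2.52 CPM against 3.41, 4.23 and 3.40 in ND (-0.37 ± 0.15, adjusted p = 0.0480). The diets overlapped, and the call was lost without HFD replicate 1 or 3 or ND replicate 1 or 2 (adjusted p of 0.0547 to 0.278) and in 4 of the other settings tried. In the shFOXRED1 experiment it had 4 to 10 counts in every library and did not pass the filter on low counts.

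CCL2, the monocyte attractant, was near the limit of detection. It had 4, 1 and 3 counts in the shControl libraries of the YY2 experiment and 0 in each shYY2 library, a ratio of 0 with an upper 95% limit of 0.624 for counting error only. In the tumors it had 0, 1 and 2 counts with HFD and 1, 3 and 0 with ND, and in the EV and HA-TRIM15 libraries 0.

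CXCL16, the membrane-bound ligand of CXCR6 and a scavenger receptor for oxidized lipoprotein, had the smallest change of all members tested with shYY2 and with HA-TRIM15. It rose in the HFD tumors from 102.8, 109.5 and 104.3 CPM to 134.5, 134.8 and 136.9, which do not overlap, 1.28-fold (0.36 ± 0.04, adjusted p = 5.39e-07). With HA-TRIM15 and shYY2 its changes were 0.08 and -0.08, with 95% intervals of -0.007 to 0.16 and -0.16 to 0.001 (adjusted p = 0.182 and 0.0700). With shYY2 the libraries overlapped, at 109.2, 104.0 and 112.3 CPM against 113.6, 120.7 and 110.7. Leaving out shYY2 replicate 3 or shControl of YY2 replicate 3 brought the change past the threshold, at -0.11 and -0.12 (adjusted p = 0.0388 and 0.0107). It also passed with no filter on low counts, at -0.09 (adjusted p = 0.0367). With shFOXRED1 it was at 162.3, 174.3 and 152.8 CPM against 157.9, 147.1 and 142.6, overlapping, with a change of 0.13 ± 0.06 (adjusted p = 0.114). That change passed with the replicate number as a block (adjusted p = 0.0216).

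CX3CL1, or fractalkine, which holds CX3CR1-bearing monocytes, natural killer cells and T cells to the surface that displays it, rose with shFOXRED1 where the ELR members did not. It had 292, 268 and 197 counts against 43, 40 and 38, or 16.2, 14.5 and 13.5 CPM against 2.37, 2.65 and 2.58. It was 5.82-fold higher (2.54 ± 0.15, adjusted p = 1.24e-09), the 15th largest change of all genes tested there. With shYY2 it went the other way, to 8.22, 9.00 and 9.30 CPM from 14.2, 13.8 and 13.2, 1.55-fold lower without overlap (-0.63 ± 0.09, adjusted p = 6.62e-06). The change in the HFD tumors was small, 22.2 ± 1.36 against 19.3 ± 1.43 CPM (0.19 ± 0.07, adjusted p = 0.0322), and was no longer called without HFD replicate 1 or 2 or ND replicate 3 (adjusted p of 0.0574 to 0.118), with DESeq2's Wald test (adjusted p = 0.0584) or in the fit of all 24 libraries (adjusted p = 0.0533). With HA-TRIM15 the groups overlapped at 3.41 ± 0.529 and 2.65 ± 0.430 CPM, a change of 0.39 with a 95% interval of 0.03 to 0.75 (adjusted p = 0.112).

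The shFOXRED1 experiment gave more calls in other fits. The replicate numbers were taken as pairing its libraries, while the member counts and fold changes above came mainly from the unpaired fit. With the replicate number as a block 2 members were higher and 2 lower: CX3CL1 and CXCL16 (0.13, adjusted p = 0.0216), and CXCL1 and CXCL8 (-0.19, adjusted p = 0.0250). Without shFOXRED1 replicate 3 there were 2 higher and 3 lower, with CXCL6 added at -0.32 (adjusted p = 0.0221). In that unpaired fit CXCL8 came to -0.26 and CXCL16 to 0.17 (adjusted p = 0.00929 and 0.00641). This library differed from the others of its group by more than any other pair within a group did.

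**Figure D2:**
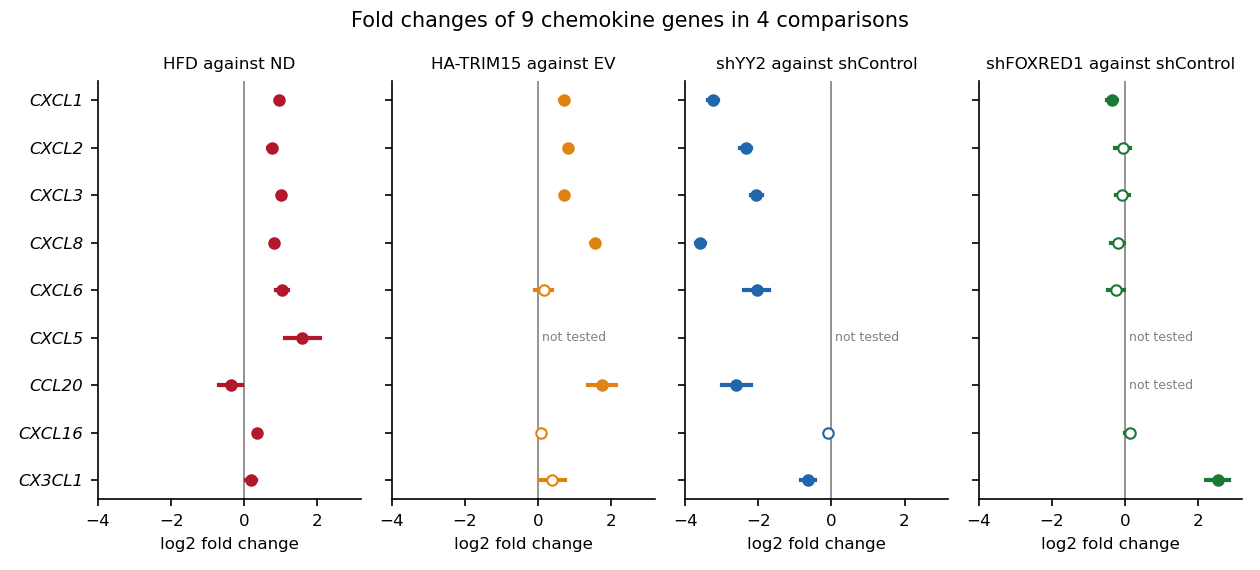
Log2 fold change of treated over control for 9 members in the 4 comparisons, with 95% intervals from the unpaired edgeR fit (bars). Filled circles passed at an adjusted p under 0.05, open ones did not. CXCL8 stands at 0.82, 1.56, -3.59 and -0.20 from left to right, and CX3CL1 at 0.19, 0.39, -0.63 and 2.54.

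Whether a member's change differed between experiments was tested in 1 fit of all 24 libraries, in which the treatment cannot be told apart from the experiment it was part of. It used a mean per group without the replicate block, also for shFOXRED1. That fit filters over all groups, so CXCL5 and CCL20 entered it also for experiments where they had few counts, and their differences rest on those counts. Between HA-TRIM15 and HFD, 7 of the 9 members tested differed, where 28.4% of 17980 genes did. CXCL8 changed by 0.73 ± 0.07 more with HA-TRIM15 (adjusted p = 8.98e-10) and CCL20 by 2.11 ± 0.24 more (adjusted p = 6.31e-08). CXCL6, CXCL5, CXCL16, CXCL3 and CXCL1 changed by less, with differences of -0.86, -1.41, -0.29, -0.27 and -0.24. For CXCL2 the difference was 0.07 with a 95% interval of -0.10 to 0.24, and for CX3CL1 0.20 with an interval of -0.15 to 0.54. Between shYY2 and HA-TRIM15, 8 of 9 differed, where 57.4% of all genes did, led by CXCL8 at -5.12 ± 0.08, and CXCL16 did not pass (-0.12, 95% interval -0.26 to 0.02). Between shFOXRED1 and shYY2, 9 of 9 differed, where 55.5% of all genes did. CXCL8 differed there by 3.35 ± 0.09, CX3CL1 by 3.14 ± 0.16 and CXCL16 by 0.17 ± 0.07 (adjusted p = 4.77e-23, 2.47e-16 and 0.0332).

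The balance between members also moved, as ratios of counts within a library show, which do not depend on how libraries are scaled. These ratios were chosen after the fold changes were seen, and with 3 libraries a group the exact permutation test cannot give a two-sided p under 0.1, the value that each difference named here had. CXCL8 had 0.936, 0.889 and 0.951 counts per count of CXCL1 with HA-TRIM15 and 0.538, 0.514 and 0.492 with EV. In the HFD tumors that ratio was 0.784 ± 0.0414 against 0.853 ± 0.0202, a small move in the other direction, also without overlap. CXCL6 fell against CXCL1 with HA-TRIM15, to 0.0832 ± 0.00264 from 0.123 ± 0.0174, and rose against it with shYY2, to 0.182 ± 0.0463 from 0.0791 ± 0.00766. CXCL3 had 1.35, 0.956 and 1.11 counts per count of CXCL1 with shYY2 and 0.495, 0.464 and 0.518 in its control. CX3CL1 had 0.0904 ± 0.00852 counts per count of CXCL16 with shFOXRED1 against 0.0170 ± 0.00178.

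**Figure D3:**
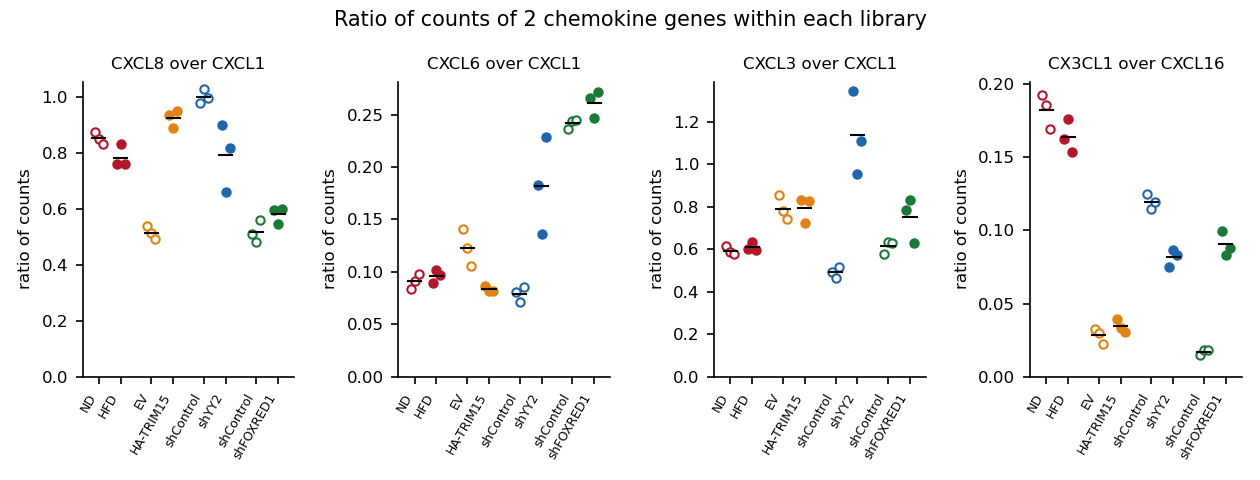
Ratio of the counts of 2 members within each library, with axes from 0. Open circles are controls, filled circles treated libraries, lines the means of 3. CXCL8 over CXCL1 stands at 0.889 to 0.951 with HA-TRIM15 and at 0.492 to 0.538 with EV, and CXCL3 over CXCL1 at 0.956 to 1.35 with shYY2 and at 0.464 to 0.518 in its control.

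The level of a member depended on the experiment as well as the treatment. The 8 groups are ordered here by their mean CPM, which was scaled within each experiment, so the order across experiments is a description. For CXCL8 the order was HFD at 154.1, the shControl of YY2 at 102.8, ND at 86.9, HA-TRIM15 at 75.5, the shControl of FOXRED1 at 36.6, shFOXRED1 at 32.0, EV at 25.5 and shYY2 at 8.52. Only the shControl of FOXRED1 and shFOXRED1 overlapped among these neighbors. For CX3CL1 the 2 tumor groups led, at 22.2 and 19.3, then shFOXRED1 at 14.7 and the shControl of YY2 at 13.8, which overlapped each other, and shYY2 at 8.84. HA-TRIM15, EV and the shControl of FOXRED1 closed the order at 3.41, 2.65 and 2.53, each overlapping the next. So the 2 control hairpin groups, of 1 cell line at the same number of hours, were 13.8 ± 0.507 and 2.53 ± 0.150 CPM, and the shFOXRED1 libraries overlapped the former. For CXCL16 the same order ran from 163.2 with shFOXRED1 to 94.0 in EV, the narrowest span of the members. CCL20 was at 4.40 ± 0.336 CPM in the shControl of YY2 and at 0.471 ± 0.194 in that of FOXRED1.

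Across the 24 libraries, centered within each experiment, the ELR members rose and fell together. Pearson's r on log2(CPM + 1) was 0.888 to 0.984 among CXCL1, CXCL2, CXCL3, CXCL6 and CXCL8, and 0.155 to 0.272 between CX3CL1 and these 5. The libraries of a group share their treatment, so r mostly follows the 4 contrasts. Among 13025 genes, the one most like CXCL8 was CXCL2 (r = 0.984), followed by HSPA5 (0.979), the chaperone of the endoplasmic reticulum, and NFATC2 (0.978). The gene most like CXCL3 was TNFAIP3 (0.992), the NF-kB feedback inhibitor A20, which was also among the 3 most like CXCL2 (0.981). CXCL1 was nearest to RABGGTB (0.984), EPHA2 (0.983) and CXCL2 (0.981), and CXCL6 to YWHAB (0.983), ANP32E (0.979) and SLC7A1 (0.978). CX3CL1 was nearest to WBP1L (0.948), TOR1B (0.938) and C15orf39 (0.924), and CXCL16 to DNAJC5 (0.911), SAMD4B (0.905) and ERG28 (0.896).

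The genes beside the chromosome 4 stretch were looked at after the members' values were seen. Of its 16 annotated genes 9 code for protein, and the 3 that are not members are the platelet chemokines PF4V1, PF4 and PPBP. PPBP had 13, 11 and 25 counts with HFD against 2, 4 and 6 with ND, 4.78-fold (2.26 ± 0.42, adjusted p = 0.000318), and 0 to 3 counts in the libraries of the other experiments, where it was not tested. Beyond its ends, EREG, which encodes epiregulin, a ligand of the epidermal growth factor receptor, changed by 0.76, 0.47, -1.21 and -0.48 in the 4 comparisons, all past the threshold. AREG, the ligand next to it, did not pass in the tumors (adjusted p = 0.998). It changed by 0.30 with HA-TRIM15, -0.47 with shYY2 and -0.78 with shFOXRED1, each past the threshold. MTHFD2L, which lies between CXCL2 and those 2, changed by -0.10, -0.13, -0.47 and -0.31, of which -0.47 passed. On the other side, RASSF6 changed by 0.56, 0.35, 1.56 and -0.30, of which the rises with HFD and with shYY2 passed (adjusted p = 4.92e-05 and 1.86e-08).

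**Figure D4:**
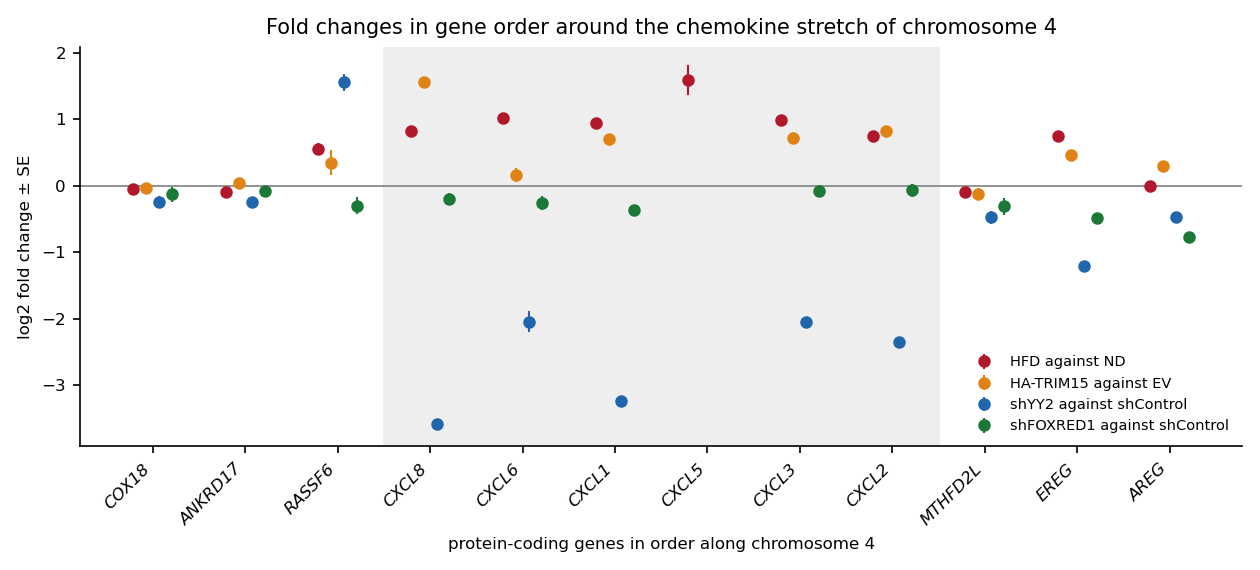
Log2 fold change ± SE of protein-coding genes in their order along chromosome 4, equally spaced, with the chemokine stretch shaded. Drawn are the genes that were tested within the stretch or among the 5 nearest tested genes on each side in all 4 comparisons. CXCL5, which was tested in the first alone, is drawn too. BTC, beyond AREG, was not among those nearest with HFD and is not drawn (0.07 with HA-TRIM15, -0.67 with shYY2 and -0.32 with shFOXRED1). With shYY2 the 5 members tested lie between -3.59 and -2.04, while RASSF6 on the left is at 1.56 and MTHFD2L on the right at -0.47.

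The receptors of the members were close to absent from these cells. The 8 of them (CXCR1, CXCR2, CXCR6, CCR2, CCR6, CX3CR1, ACKR1 and ACKR2) summed to 1.09 CPM or less in every library. Of the 36 other chemokine genes listed, 7, 5, 6 and 2 were tested in the 4 comparisons, and 3, 0, 1 and 1 were higher and 1, 0, 1 and 0 lower. Over all genes tested the shares were 25.6%, 12.5%, 36.8% and 16.8% higher and 23.9%, 9.53%, 38.1% and 19.7% lower. CCL22, a ligand of CCR4, was the 1 that rose with shFOXRED1, from 6.00 to 18.2 CPM (1.61 ± 0.15, adjusted p = 2.42e-07). In the tumors it changed by 0.20 and with shYY2 by 0.33, both higher.

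Genes that induce the members did not all move with them. Of 23 inducing cytokines and receptors, 9 of 16 tested were higher and 2 lower in HFD tumors, where 25.6% and 23.9% of all genes were. With HA-TRIM15 it was 1 and 1 of 14 (all genes 12.5% and 9.53%). With shYY2 it was 7 and 5 of 15 (36.8% and 38.1%), and with shFOXRED1 6 and 3 of 14 (16.8% and 19.7%). IL1A, the interleukin-1 form that epithelial cells hold ready, rose from 47.5 to 103.7 CPM in the HFD tumors (1.13 ± 0.04) and from 33.4 to 59.7 with HA-TRIM15 (0.83 ± 0.05), and fell from 43.4 to 20.9 with shYY2 (-1.06 ± 0.06). It also fell from 53.5 to 16.0 CPM with shFOXRED1 (-1.75 ± 0.09, adjusted p = 3.41e-10). There most members tested did not pass in the unpaired fit, while 2 were higher and 2 lower with the replicate number as a block. IL1B, the secreted relative of IL1A, rose by 1.47 ± 0.07 with HFD and fell by 1.71 on the log2 scale with shFOXRED1. It did not pass with HA-TRIM15 (-0.19 ± 0.09, adjusted p = 0.154).

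Among 15 NF-kB and C/EBP factors and their inhibitors, all tested, 11 were higher and 1 lower in HFD tumors, where 25.6% and 23.9% of all genes were. With HA-TRIM15 it was 10 and 0 (all genes 12.5% and 9.53%). With shYY2 it was 6 and 8 (36.8% and 38.1%), and with shFOXRED1 8 and 1 (16.8% and 19.7%). TNFAIP3 went from 823 to 1632 CPM with HFD, from 840 to 1326 with HA-TRIM15 and from 1404 to 354 with shYY2 (0.99 ± 0.03, 0.66 ± 0.03 and -1.99 ± 0.03). With shFOXRED1 it stood at 389 against 398 CPM (adjusted p = 0.614). NFKB1, which encodes p105 and p50, fell by 1.00 on the log2 scale with shYY2. CEBPD and NFKBIZ, a C/EBP factor and an atypical IkB protein, rose there by 0.96 and 0.52, so the list did not move one way.

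Another list held 14 secreted inflammatory genes. Of those tested 12 were higher and 1 lower of 13 with HFD, 10 and 1 of 13 with HA-TRIM15, 0 and 12 of 13 with shYY2, and 6 and 1 of 12 with shFOXRED1. Beside these, 25.6%, 12.5%, 36.8% and 16.8% of all genes tested were higher and 23.9%, 9.53%, 38.1% and 19.7% lower. CSF3, the granulocyte colony-stimulating factor, rose by 1.31 ± 0.07 with HFD and 1.50 ± 0.12 with HA-TRIM15 and fell from 11.6 to 1.07 CPM with shYY2 (-3.45 ± 0.18, adjusted p = 7.11e-11). IL6 rose by 0.49 and 1.74 and fell by 2.65 on the log2 scale in the same comparisons, and PTGS2, the inducible cyclooxygenase, fell from 50.1 to 11.4 CPM with shYY2. With shFOXRED1 PTGS2 rose by 0.52 and CSF2 fell by 1.67 on the log2 scale.

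Of 9 regulators of chemokine mRNA decay, all tested, 3 were higher and 1 lower with HFD, where 25.6% and 23.9% of all genes were. With HA-TRIM15 it was 4 and 0 (all genes 12.5% and 9.53%). With shYY2 it was 4 and 4 (36.8% and 38.1%), and with shFOXRED1 2 and 1 (16.8% and 19.7%). ZC3H12A, the RNase regnase-1, changed by 0.42, 0.34, -0.92 and 0.50, each past the threshold. ZFP36, tristetraprolin, which binds AU-rich elements, rose by 0.97 ± 0.03 with shYY2 (133.1 to 260.3 CPM). Of the 6 genes for shedding, 5 were tested, beside the same shares of all genes. With HFD 2 were higher and 2 lower, with HA-TRIM15 1 and 1, with shYY2 3 and 1, and with shFOXRED1 2 and 1. Among them ADAM17 rose by 0.37 with HFD and 0.18 with HA-TRIM15 and did not pass in the other 2 (0.05 and 0.06).

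**Figure D5:**
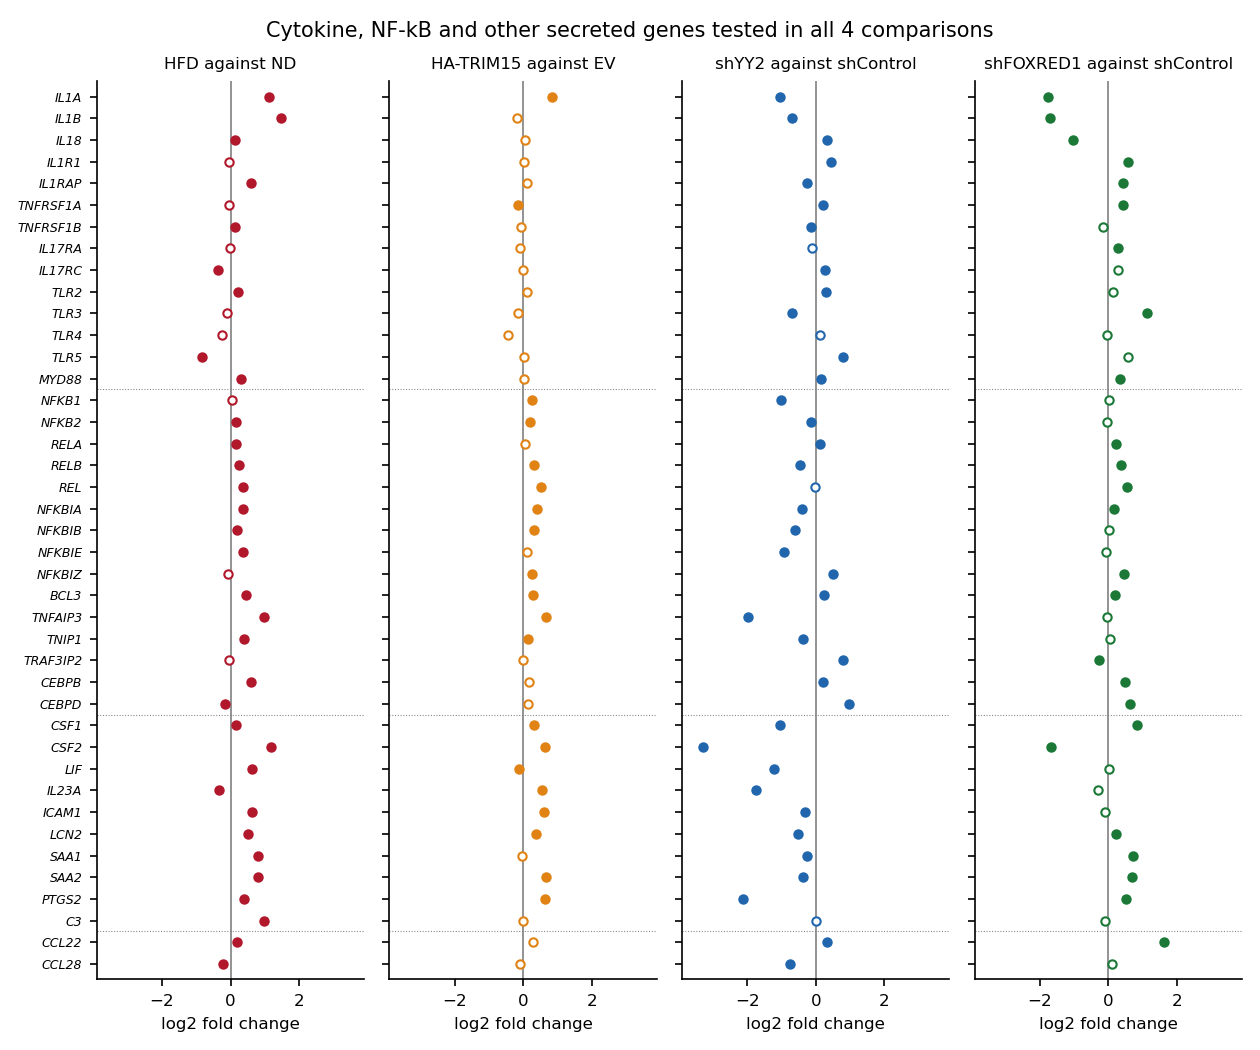
Log2 fold change in the 4 comparisons of 41 listed genes that were tested in all 4 with a mean of at least 1 CPM in each: from top to bottom, separated by dotted lines, inducing cytokines and receptors, NF-kB and C/EBP factors and inhibitors, other secreted inflammatory genes, and other chemokines. Filled circles passed at an adjusted p under 0.05. TNFAIP3 stands at 0.99, 0.66, -1.99 and -0.03, and IL1A at 1.13, 0.83, -1.06 and -1.75.

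Markers of other cell types were checked in the same libraries. Of 10 macrophage markers, 4, 2, 3 and 4 had no count in any of the 6 libraries of an experiment, in the order of the comparisons above. Their sum was 15.2 CPM in each HFD library against 15.9 to 17.2 (1 called higher, 1 lower), 8.98 to 10.2 with HA-TRIM15 against 8.13 to 8.39 (1 higher), 10.2 to 10.9 with shYY2 against 14.7 to 15.7 (1 lower), and 20.7 to 23.7 with shFOXRED1 against 24.5 to 26.0 (0 called). Of 9 fibroblast markers 1 was tested in each comparison, COL1A1. Their sum stood at 23.9 to 27.3 CPM with HFD against 30.6 to 33.8 (1 lower) and at 11.6 to 12.4 with HA-TRIM15 against 12.3 to 13.6 (0 called). With shYY2 it stood at 42.5 to 44.4 CPM against 10.9 to 12.2 and with shFOXRED1 at 38.5 to 41.8 against 24.3 to 25.5 (1 higher in each). The part of these marker shifts in the members' changes was not tested. In bulk libraries, fewer cells that make a chemokine and less of its RNA per cell cannot be told apart.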

How the data were processed

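RNA was extracted and polyadenylated mRNA was made into libraries with a NEBNext Ultra kit and read in pairs on a DNBSEQ instrument, per the paper. The labels name a directional version of the kit, and whether counting used strand, the aligner, the annotation and the treatment of mouse reads are not given in the sources used here. The submitters' processing notes name the builds hg38 and mm10. The authors deposited 4 tables of raw counts per Ensembl identifier, 1 per experiment. Members were found by symbol through GENCODE 29 and the reference name table; 99.8% of 61860 identifiers had a symbol.

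Counts were tested in each experiment with edgeR 4.0.16 in R 4.3.3 (filterByExpr with a minimum count of 10, TMM, quasi-likelihood test, Benjamini-Hochberg over all genes tested, threshold 0.05). CPM used TMM library sizes. Levels per kb used exon length. Intervals used the degrees of freedom of the fit. The script was tested on simulated counts, where false calls ran somewhat above the nominal rate. The members, the gene lists and the ratios were chosen with earlier results of these data known; all members are named, and from each list up to 4 genes of at least 1 CPM with the largest called change in some comparison, beside IL1A and IL1B. NFKBIZ and the neighbors on chromosome 4 were chosen after their values were seen. The 24 pairs of libraries within groups differed by more than sampling noise (chi-square per gene of 1.47 to 7.94). The highest values, 7.94 and 6.90, were those of shFOXRED1 replicate 3 with replicates 1 and 2.

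Whether replicate numbers pair libraries was checked with the correlation of same-numbered libraries' deviations from their group means. For shFOXRED1 and its control this came to 0.218, 0.129 and 0.419 over 9725 genes of at least 10 CPM, all above 0.1, and 0.0626, 0.0362 and 0.157 over all genes tested. The numbers were taken as pairing there and in no other experiment; no label or method states such a pairing.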

Additional observations from a re-analysis of the deposited data

How the results depend on the processing

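The counts of members called were recomputed with DESeq2's size factors, DESeq2's Wald test, no filter on low counts, at least 10 counts in every library, a replicate block, all 24 libraries in 1 fit, and without each library in turn. The 1 member lower with HFD, CCL20, was not called with DESeq2's Wald test, no filter, the replicate block or the 24-library fit (0 members lower in each), and the count ran from 0 to 1 when 1 library was left out. The members higher with HFD were 7 in place of 8 with DESeq2's Wald test and in the 24-library fit, both without CX3CL1. With shYY2 the members lower were 10 in place of 7 with no filter and 8 in the 24-library fit. That count was 7 or 8 when 1 library was left out. With shFOXRED1 the members higher and lower were 2 and 2 with the replicate block and 2 and 3 in the 24-library fit, and 1 to 2 and 1 to 3 when 1 library was left out. The replicate block changed no other call of a member. The members that differed between HA-TRIM15 and HFD were 6 in place of 7 with DESeq2's Wald test. That count was 6 or 7 when 1 library was left out. Between shFOXRED1 and shYY2 the count ran from 7 to 9 when 1 library was left out, and between shYY2 and HA-TRIM15 it stayed at 8. The log2 fold changes of CXCL2 and CXCL3 with shFOXRED1, neither of which passed, ran from -0.13 to 0.023 and from -0.15 to 0.0026 when 1 library was left out, and the summed gene stood at -0.21 when CXCL1 to CXCL3 were counted as 1. DESeq2 gave no adjusted p for CCL20 and CX3CL1 with HA-TRIM15, so it called 4 members higher there. The cause of these shifts was not tested. Without a filter the median log2 fold change of all genes moved to 0.10 with shFOXRED1. Depth limits CXCL5, CCL20 and CCL2, which had under 15 counts a library in several groups.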
